A study of Mus musculus with 2 samples.

Results

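The T cell receptor complex and the first enzymes and scaffolds that act on it were followed on 2 microarrays of mouse lymphocytes polarized in culture. The genes were chosen by symbol, from a list of 9 (Cd3d, Cd3e, Cd3g, Cd247, Cd4, Cd2, Lat, Lck and Zap70), and a gene was measured where a probe of the deposited table was annotated to it alone. Of the 9 genes, 8 were measured, by 10 probes in all, out of 17501 named genes in the table. Lck was not analysed here, since no probe given for the table carried its name alone. One array set RNA of Th1-polarized lymphocytes (Cy5) against RNA of Th0-polarized lymphocytes (Cy3), and the other set Th17-polarized (Cy5) against Th0-polarized cells (Cy3); they are called the Th1 array and the Th17 array here. The labels give a TRP-1 mouse as the source of all populations, a name used for animals whose CD4 T cells carry a transgenic receptor for a melanoma antigen. The labels used here gave no age, cytokine mix or culture time and did not say whether 1 Th0 RNA served both arrays. There was 1 array per comparison, so no value has a replicate, none was tested, and the number of arrays limits the precision.

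The antigen-binding chains of the T cell receptor have almost no signalling tail of their own. They depend on the CD3 delta, epsilon and gamma chains (Cd3d, Cd3e, Cd3g) and on the zeta chain (Cd247), whose tails carry tyrosine motifs known as ITAMs. The coreceptor CD4 binds MHC class II and brings the kinase Lck to the complex. Lck phosphorylates the ITAMs, the kinase Zap70 docks there and phosphorylates the scaffold Lat, and Lat gathers the enzymes that open the calcium, Ras and protein kinase C branches. CD2 is an adhesion receptor that binds CD48 in the mouse and aids this signalling.

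Values are log2 ratios of the 2 channels as deposited, and a gene was counted as apart at an absolute log2 ratio of at least 1, which is a 2-fold difference. The order of the ratio is not settled. Read as titled, a negative value means less RNA in the polarized than in the Th0 population, but Ifng, the Th1 cytokine gene, lay at −2.02 on the Th1 array and Il17a, the Th17 cytokine gene, at −5.37 on the Th17 array. On the other array Ifng lay at −0.83 and Il17a at 0.29, so each was more negative on the array of its own lineage. With the sign turned, a negative value means more RNA in the polarized population. Signed values below are as deposited and open to both readings. The zero of each array is also not settled: the most repeated value, held by 110 and 162 probes and taken here as equal signal in both channels, was −0.85 on the Th1 array and −0.43 on the Th17 array. The medians of 13 widely expressed control genes, 0.25 and −0.02 as deposited, lay nearer the deposited zero than those values. Positions among all genes are therefore given as percentiles counted from the most negative gene, which do not move with the zero.

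The genes of the 3 CD3 chains are neighbours on chromosome 9, and Cd3d and Cd3g were the lowest and the highest of the 8 genes on the Th1 array. The start sites of Cd3g and Cd3d lie 1355 bases apart and are read in opposite directions, and that of Cd3e lies 27825 bases from that of Cd3d. The 250 bases before the start sites of these genes are shown because the values of Cd3d and Cd3g differed although the genes are neighbours. Those of Lat are shown because, among the other measured genes with such a stretch available, it lay nearest Cd3d on both arrays. The stretches of Zap70 and Cd247, which also lay on the negative side as deposited, are not shown. Sequences are from RefSeq on build GRCm38.p6, each read 5′ to 3′ on the strand of its gene. Capitals mark, on either strand, matches to GGAAGT (an Ets-type motif), CANNTG (the E-box), TGTGGT (a Runx-type motif), TATAAA (a core promoter motif) and TGACG (the half-site of the cAMP response element).
Cd3d (chr9:44981536-44981785, plus strand): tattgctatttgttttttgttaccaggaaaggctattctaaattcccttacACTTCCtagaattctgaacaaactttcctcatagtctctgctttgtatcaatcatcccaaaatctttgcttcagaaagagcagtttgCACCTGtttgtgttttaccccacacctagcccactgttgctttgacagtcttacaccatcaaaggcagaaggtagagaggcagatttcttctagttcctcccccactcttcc
Cd3g (chr9:44980432-44980681, minus strand): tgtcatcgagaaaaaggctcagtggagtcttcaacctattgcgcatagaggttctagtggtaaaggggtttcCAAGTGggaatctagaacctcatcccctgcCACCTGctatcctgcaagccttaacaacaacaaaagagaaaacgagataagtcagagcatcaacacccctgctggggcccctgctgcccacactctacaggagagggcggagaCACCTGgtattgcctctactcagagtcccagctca
Cd3e (chr9:45009612-45009861, minus strand): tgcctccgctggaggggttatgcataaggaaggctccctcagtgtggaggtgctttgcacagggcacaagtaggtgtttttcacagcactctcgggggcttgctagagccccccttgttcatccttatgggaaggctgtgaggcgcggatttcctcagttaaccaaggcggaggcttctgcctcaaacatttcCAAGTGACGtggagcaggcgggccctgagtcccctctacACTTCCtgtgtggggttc
Lat (chr7:126369569-126369818, minus strand): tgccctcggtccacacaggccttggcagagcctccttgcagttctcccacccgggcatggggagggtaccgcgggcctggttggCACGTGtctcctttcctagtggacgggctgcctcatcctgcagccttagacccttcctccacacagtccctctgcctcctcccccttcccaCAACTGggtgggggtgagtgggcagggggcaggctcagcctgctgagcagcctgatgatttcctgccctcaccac

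The Cd3d window held 1 Ets-type and 1 E-box match, while the Cd3g window held 3 E-box matches and no Ets-type match. The Cd3e window held 1 Ets-type match, 1 E-box match and 1 TGACG match, the last 2 overlapping in 1 run of capitals, and the Lat window held 2 E-box matches. The other motifs were not found in these windows. Over all 32851 windows of this length in the table, an E-box was found in 66.2%, the Ets-type motif in 19.7%, the TGACG motif in 17.8%, the Runx-type motif in 14.0% and the core promoter motif in 12.4%. A match is a description of the letters and not a site of binding. Windows were in the table for 7 of the 9 genes, Cd4 and Cd2 being the others.

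Among the chains of the complex, Cd3d stood on the negative side and the others nearer the middle of all genes. Cd3d, the delta chain, lay at −1.43 on the Th1 array and at −1.0 on the Th17 array, which is 2.69-fold and 2.0-fold. These values put it at percentile 3.26 and 5.51 of all genes. Cd3e, the epsilon chain, which pairs with both of the other CD3 chains, lay at −0.44 and 0.14, at percentiles 22.9 and 68.4. Cd3g, the gamma chain, lay at −0.07 and 0.43, at percentiles 50.8 and 87.9, so that it was near the middle on the first array and in the upper range on the second. Each of the CD3 genes was measured by 1 probe.

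Within an array, the difference between genes does not depend on the zero. The log2 ratio of Cd3g exceeded that of Cd3d by 1.36 on the Th1 array (2.57-fold) and by 1.43 on the Th17 array (2.69-fold). Cd3e exceeded Cd3d by 0.99 and 1.14, and Cd3g exceeded Cd3e by 0.37 and 0.29. The scale for these values is the spread between different probes of 1 gene, the sole repeat measurement here. Its pooled SD was 0.51 on the Th1 array and 0.49 on the Th17 array over 5886 genes, which gives an SD of 0.73 and 0.69 for a difference of 2 probes. The gaps from Cd3d to Cd3g and Cd3e were larger than this spread on both arrays, and those between Cd3e and Cd3g were smaller. Cd3d and Cd3g were also the lowest and highest of the 8 genes on the Th1 array. The SD for 2 probes takes no account of that, so exceeding it does not set the gap apart from probe spread. The spread covers probes and not samples. Each CD3 gene was read by the same probe on both arrays, and 1 Th0 RNA may have served both. The second pair of values therefore cannot be taken as independent of the first.

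Cd247, the zeta chain, was the complex member with a repeat measurement. Its 2 probes lay at −0.54 and −0.04 on the Th1 array (mean −0.29, SD 0.35, 2 probes) and at −0.09 and −0.08 on the Th17 array (mean −0.09). The probes differed on the first array and nearly coincided on the second. The gene stood at percentiles 31.6 and 44.2, between Cd3e and Cd3g on the first array and between Zap70 and Cd3e on the second.

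**Figure D1:**
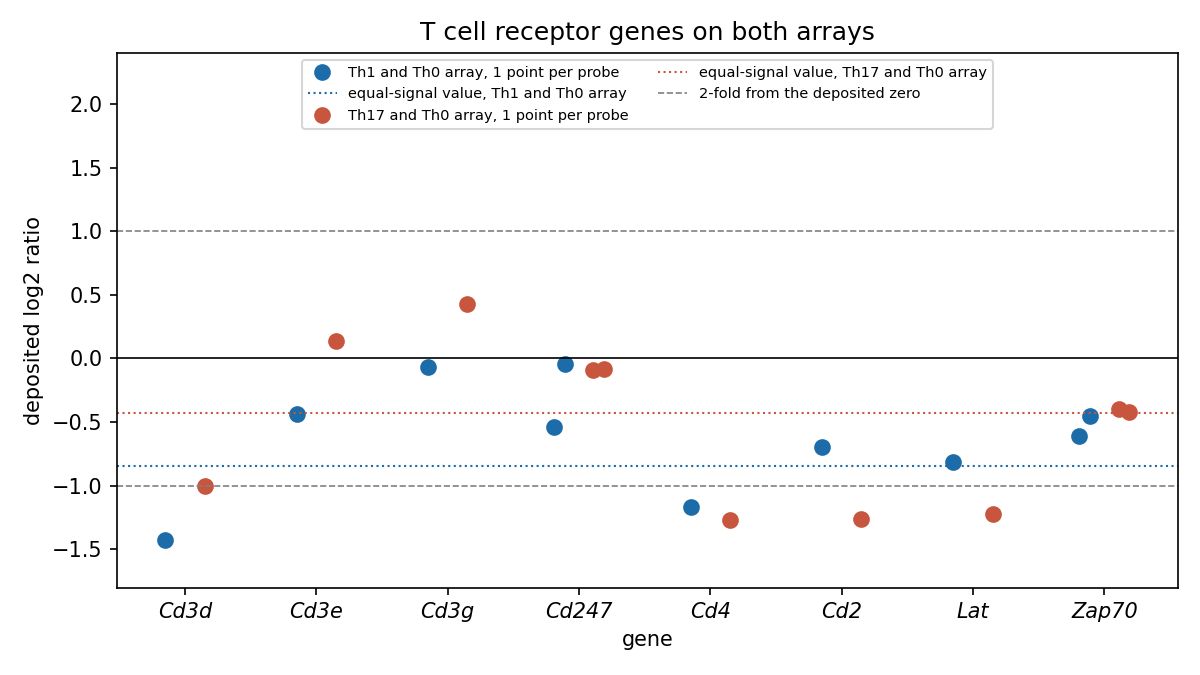
Deposited log2 ratio (vertical axis) of each probe of the 8 measured genes (horizontal axis) on the Th1 array (blue) and the Th17 array (red), 1 point per probe, with no replicate arrays and no error bars. Cd3d, Cd4, Cd2 and Lat lie at −1.0 or lower on the Th17 array, while Cd3g reaches 0.43; dotted lines mark the equal-signal values of −0.85 and −0.43, above which 6 genes lie on the Th1 array.

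The coreceptor and the adhesion receptor lay further to the negative side than most of the chains. Cd4 lay at −1.17 on the Th1 array (2.25-fold) and at −1.27 on the Th17 array (2.41-fold), at percentiles 5.05 and 3.57. Cd2 lay at −0.70 and −1.26, or 1.62-fold and 2.39-fold, at percentiles 13.1 and 3.63. Both were thus past 2-fold on the Th17 array, and Cd4 on the other array too. Each had 1 probe.

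Of the scaffold and the kinase that act next, the scaffold lay further to the negative side. On the Th1 array the 2 genes lay closer together than the SD of 0.73 for a difference of 2 probes. On the Th17 array they lay farther apart than the 0.69 there, and the scaffold had 1 probe. Lat, the scaffold, lay at −0.82 on the Th1 array (1.76-fold) and at −1.23 on the Th17 array (2.34-fold), at percentiles 10.2 and 3.82. Its values were near those of Cd2, lying 0.12 below on the first array and 0.03 above on the second. Zap70, the kinase that phosphorylates Lat, had 2 probes, at −0.61 and −0.45 on the Th1 array (mean −0.53, SD 0.11) and at −0.40 and −0.42 on the Th17 array (mean −0.41, SD 0.02). The probes of Zap70 lay close together on each array, and the gene stood at percentiles 18.5 and 19.6, 1.44-fold and 1.33-fold from the deposited zero.

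Of the 8 genes, 2 (Cd3d and Cd4) were past 2-fold negative on the Th1 array, where 6.92% of all genes were, and 0 were past 2-fold positive, where 3.27% were. On the Th17 array 4 of 8 (Cd4, Cd2, Lat and Cd3d) were at least 2-fold negative, against 5.52% of all genes, and 0 were positive, against 2.9%. Cd3d on that array lay at the edge, with a 2.0-fold difference. The median of the 8 genes was −0.61 on the Th1 array, beside −0.08 over all genes, and −0.71 on the Th17 array, beside −0.03. As deposited, 8 of 8 lay below 0 on the Th1 array and 6 of 8 on the Th17 array. Centring each array on its median over probes made that 7 and 6. Setting each array to 0 at its equal-signal value, chosen after the data were seen, made it 2 and 4. On that zero 0 genes were at least 2-fold negative on either array, against 1.70% and 2.78% of all genes. Past 2-fold positive on it were 29.8% and 8.17% of all genes. With each array centred on control genes, 3 of the 8 genes were at least 2-fold negative on each array, against 11.6% and 5.23% of all genes. With centring on the median over probes they numbered 2 and 3, against 5.65% and 5.10%. Relative to the median of all genes, which no such shift alters, 7 of 8 lay below on the Th1 array and 6 of 8 on the Th17 array.

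From lowest to highest, the order on the Th1 array was Cd3d, Cd4, Lat, Cd2, Zap70, Cd3e, Cd247 and Cd3g, and each neighbouring pair differed by less than the SD of 0.73 for a difference of 2 probes. The values there formed a graded series from −1.43 to −0.07. On the Th17 array the order was Cd4, Cd2, Lat, Cd3d, Zap70, Cd247, Cd3e and Cd3g. The widest gap between neighbours, 0.59 from Cd3d to Zap70, was also below the SD of 0.69 for such a difference. The first 3 lay within 0.05 of each other, so that Cd4, Cd2 and Lat cannot be ordered.

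**Figure D2:**
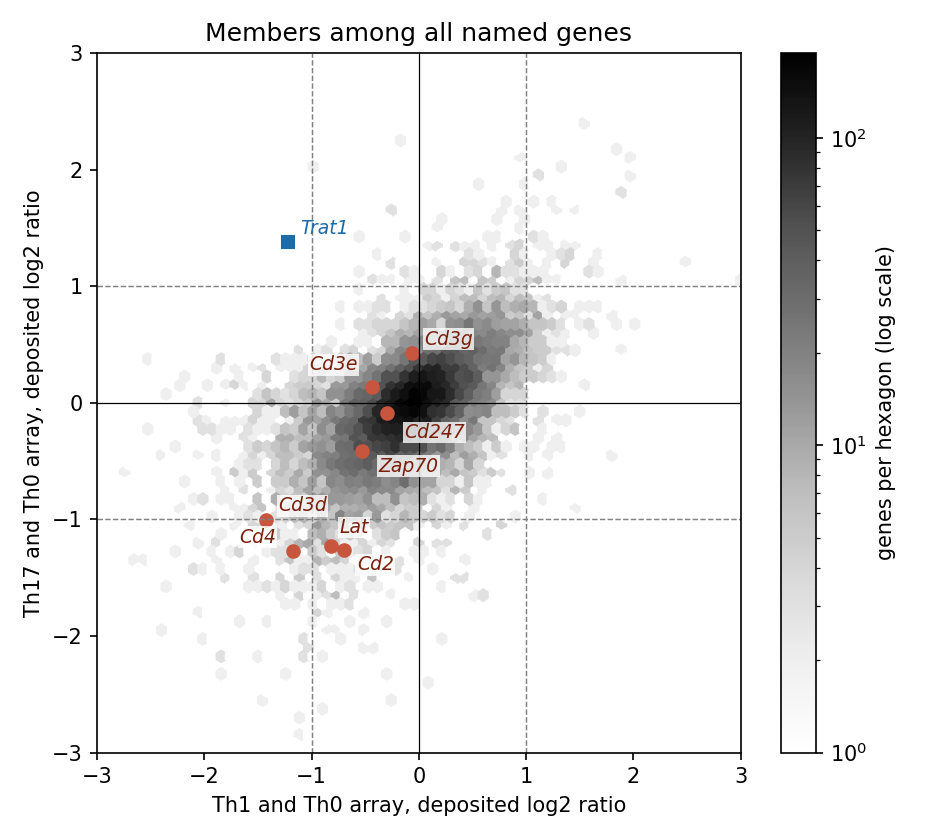
Deposited log2 ratio on the Th17 array (vertical axis) against that on the Th1 array (horizontal axis) for named genes, as hexagons shaded by the number of genes on a log scale, with the 8 measured genes as red points and the adaptor gene Trat1 as a blue square; 172 genes lie beyond the axis limit of 3. Cd3d, Cd4, Lat and Cd2 lie at the lower left, Cd3e, Cd3g, Cd247 and Zap70 nearer the crossing of the deposited zeros, and Trat1 at −1.22 and 1.38 apart from both.

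Th17 was set against Th1 as the log2 ratio of the Th17 array minus that of the Th1 array, which assumes the same Th0 RNA on both. None of the 8 genes differed by 2-fold, where 8.14% of all genes did. The chains of the complex had positive differences of 0.43 for Cd3d, 0.57 for Cd3e, 0.49 for Cd3g and 0.21 for Cd247 (probe values 0.45 and −0.04). Cd4, Cd2 and Lat had negative ones of −0.10, −0.56 and −0.41, and Zap70 lay at 0.12. The pooled probe SD of this difference was 0.52, so the differences of Cd3e (0.57) and Cd2 (−0.56) slightly exceeded it and the other 6 did not. The median of the 8 genes was 0.16, beside 0.04 over all genes. It became −0.26 with each array set to 0 at its equal-signal value, and 0.44 with each array centred on control genes.

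Genes around the complex were taken from 6 lists of surface receptors, kinases, adaptors and branch enzymes, 79 genes measured of 96 listed. They spread to both sides. On the Th1 array 3 of the 79 were past 2-fold negative and 8 past 2-fold positive, with a median of −0.05. Of all genes, 6.92% were negative and 3.27% positive there. On the Th17 array 11 were positive and 3 negative, with a median of 0.14, against 2.9% and 5.52% of all genes. These shares of all genes also apply to the counts of single lists below. When the arrays were centred on control genes, the counts became 7 positive and 6 negative on the first array, against 1.83% and 11.6% of all genes. On the second array the counts became 13 and 2, against 3.01% and 5.23%. At the equal-signal zero they were 30 positive and 0 negative on the first array, where 29.8% of all genes were positive and 1.70% negative, and 20 and 0 on the second, where 8.17% and 2.78% were. Of the antigen-binding chains and other ITAM chains, 1 of 12 was measured, Fcer1g, the ITAM chain of Fc receptors, which is also a myeloid marker and lay at 2.98 and 1.06.

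**Figure D3:**
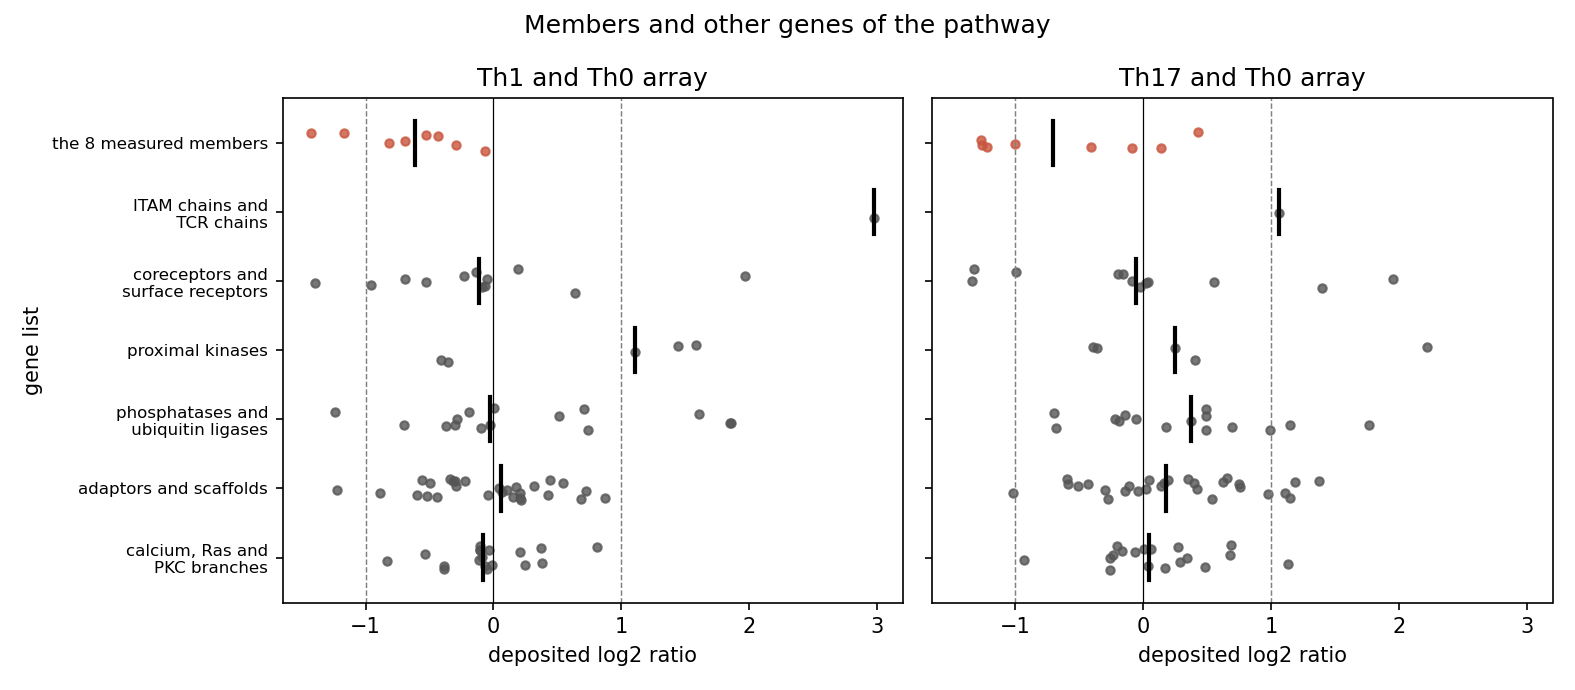
Deposited log2 ratios (horizontal axis, same scale in both panels) of the 8 measured genes (red) and of the genes of 6 pathway lists (grey) on the Th1 array (left) and the Th17 array (right), 1 point per gene, with black bars at the medians and dashed lines at 2-fold. The 8 genes have medians of −0.61 and −0.71, the 28 adaptors and scaffolds 0.06 and 0.18, and the zero of each panel is the deposited one.

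Of the coreceptors and surface receptors, all 12 listed were measured; 1 was positive and 1 negative on the Th1 array, and 2 were positive and 2 negative on the Th17 array. Cd28, the costimulatory receptor, lay at −1.39 and −0.09 (2 probes). Cd5, an inhibitory surface receptor of T cells, lay at −0.52 and −1.34, and Slamf1, a relative of CD2, at −0.96 and −1.33. Cd48, the ligand of CD2 in the mouse, lay on the opposite side to Cd2 as deposited, at 0.64 and 1.40. Cd244a, another receptor for CD48, lay at 1.97 and 1.96. At the equal-signal zero Cd2 lay at 0.15 on the Th1 array, on the side of Cd48. Cd8a and Cd8b1, the chains of the other coreceptor, lay at −0.13 and −0.05 on the Th1 array and at 0.03 and −0.16 on the Th17 array, near the deposited zero of both.

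Of the proximal kinases, 5 of 6 were measured; 3 were positive on the Th1 array and 1 on the Th17 array. Txk and Tec, kinases of the Tec family, lay at 1.58 and 1.45 on the first array and at 2.22 and 0.41 on the second. Syk, the relative of Zap70 used by B cells and myeloid cells, lay at 1.11 and −0.39, against −0.53 and −0.41 for Zap70. Of the 15 phosphatases and ubiquitin ligases, 3 were positive and 1 negative on the Th1 array, and 2 were positive on the other. The ubiquitin ligase gene Cbl lay at 1.85 and 1.77, and Ubash3a and Ubash3b, 2 relatives that dampen T cell receptor signalling, lay on opposite sides on the Th1 array at −1.24 and 1.86, and at −0.69 and 1.15 on the Th17 array. Rnf128, an E3 ligase gene linked to T cell anergy, lay at 1.61 and 0.70, with probes at 2.39 and 0.83 on the first array.

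Of the 79 genes, an adaptor gene differed most between the arrays as deposited. Trat1, a transmembrane adaptor that associates with the T cell receptor, lay at −1.22 on the Th1 array and at 1.38 on the Th17 array, a difference of 2.60. At the equal-signal zero its difference was 2.18, and that of Fcer1g, −2.34, was larger in size. The 3 probes of Trat1 lay at −1.11, −1.19 and −1.38 on the first and at 0.92, 1.95 and 1.26 on the second. Trat1 was picked by the size of its values, and probes of 1 gene are not replicates of a population. The distance between its probe values on the 2 arrays therefore adds no support. Themis, a T cell scaffold, lay at −0.50 and 0.75, a difference of 1.24. Pstpip1, which binds CD2, lay at 0.43 and 1.19, Dok2, a negative regulator, at 0.22 and 1.15, and Sh2d2a at 0.87 and 1.11, where its 2 probes differed widely on the second array (0.26 and 1.95). In all, of 28 adaptors and scaffolds measured, 0 were positive and 1 negative on the Th1 array, and 4 were positive and 1 negative on the Th17 array. Of 18 calcium, Ras and protein kinase C genes, Itpr3, a calcium channel of the endoplasmic reticulum, was the 1 past 2-fold, at 0.81 and 1.14.

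The genes of these lists nearest to the median of the 8 genes over the 2 arrays were Dgka, at −0.70 and −0.69 (distance 0.09), Cd2bp2 at −0.59 and −0.59 (0.12), Sla at −0.44 and −0.51 (0.26), Grap2 at −0.52 and −0.44 (0.29) and Cd6 at −0.69 and −1.0 (0.30). Likeness was the straight-line distance on the log2 scale over 2 arrays.

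Markers of other cells also lay away from 0 on these arrays. On the Th1 array, 12 of 17 measured myeloid markers and 11 of 12 mast cell or basophil markers were at least 2-fold positive and 0 of either negative, with medians of 1.49 and 2.37, so they lay opposite to Cd3d and Cd4. Of all genes, 3.27% were positive and 6.92% negative there. Fcer1g and Lyz1 lay at 2.98 and 2.97 there, and Prss34 and Mcpt8, proteases of mast cells and basophils, at 3.31 and 3.0. On the Th17 array Fcer1g, Prss34 and Mcpt8 lay at 1.06, 1.39 and 1.04, and Lyz1 at −0.87. The myeloid marker Mpo lay at 1.26 on the Th1 array and at 2.98 on the Th17 array. Mcpt2, of the mast cell or basophil list, lay at 2.71 and −0.38. On the Th17 array, where 4 of the 8 genes were past 2-fold, 7 of 17 myeloid markers were past 2-fold positive and 1 negative (median 0.56). Of the mast cell or basophil markers, 4 of 12 were past 2-fold positive (median 0.68). Of all genes, 2.9% were positive and 5.52% negative there. Below 0 on that array lay 6 of the 17 myeloid and 4 of the 12 mast cell or basophil markers. The shares of all genes on each array also apply to the lists that follow. B cell markers had medians of −0.14 and 0.14 over 9 genes, with 1 negative past 2-fold on each array, Cr2 at −1.12 and −1.25. Class II genes had medians of 0.41 and −0.25 over 10, with 2 positive on the first and 2 negative on the second. Cd86, 1 of the latter, lay at −0.37 and −1.93. NK cell markers had medians of −0.44 and −0.33 over 9 genes but members far to both sides, 1 positive and 3 negative on the first array and 3 positive and 2 negative on the second. Among them Klrb1c lay at 3.22 and 3.72, Nkg7 at 0.68 and 2.39, and Klrc1 at −2.49 and −2.17. Red cell markers had medians of 0.18 and 0.18 over 5 genes, with 2 positive on the second array, Hbb-b1 at 1.51 and Hba-a1 at 1.26. T cell markers other than the 8 genes, 6 measured of 10, had medians of −0.96 and −0.54, with 3 negative past 2-fold on the first array and 2 negative and 1 positive on the second. They ran from Cd28 at −1.39 to Thy1 at 0.19 on the first array, and from Bcl11b, a T cell transcription factor gene, at −1.44 to Trat1 at 1.38 on the second. The part of these cells in the values of the 8 genes was not tested. The table holds ratios and no levels, so neither the amount of any cell type nor a marker at 0 can be read from it, and in whichever population had less of these RNAs, fewer T cells cannot be told apart from less of the RNA per T cell. As titled that is, for the negative values, the polarized population, and with the sign turned it is the Th0 population.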

How the data were processed

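Per the labels' protocols, 500 ng of column-purified total RNA per sample was amplified with amino allyl nucleotides for dye coupling. The deposited table held log2 ratios of the 2 channels for 36547 probes and 2 arrays, with 0 values missing. The log2 scale was read from the values: repeated values are spaced by log2 of small whole-number ratios. Scanner, background correction, normalization and ratio order are not given in the sources used here. Over probes, the arrays' medians were −0.11 (Th1 array) and −0.05 (Th17 array), and their correlation over probes was 0.53.

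Platform annotation, which can be old, gave 26926 probes with 1 gene, 203 with several and 9418 unnamed here; 26774 matched the RefSeq gene list (GRCm38.p6) by gene number. Probes of 1 gene were averaged into 17501 genes with pandas 2.3.3 in Python 3.11.15. With 1 array per comparison no p-value was computed.

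Named were all members, per pathway list up to 5 genes past 2-fold by size, the 5 genes nearest the members' median, and leading markers of other cells. Members and lists were chosen with earlier results of these data known. A search for ratios of whole-number signals with a weaker channel of at most 20 units found 0 of the 10 member probes on either array. The spread and search steps were tested on simulated data.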

Additional observations from a re-analysis of the deposited data

Results flagged for a closer look

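Of the 8 genes, 2 had values of opposite sign on the arrays as deposited, Cd3e (−0.44 and 0.14) and Cd3g (−0.07 and 0.43). The difference, the Th17 array minus the Th1 array, was 0.57 for Cd3e and 0.49 for Cd3g, and it was not tested, since each comparison had 1 array. With each array set to 0 at its equal-signal value both genes lay above 0 on both arrays, Cd3e at 0.41 and 0.56 and Cd3g at 0.78 and 0.85.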

How the results depend on the processing

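No paired analysis was possible because each group held 1 array. A value was taken as unmoved within the pooled SD between probes, and a count within 1.5 times. Centring on the median over probes, the median of the probes and leaving out probes of a weak channel moved none of the medians and counts of members and pathway genes that far. Centring on control genes gave 6 negative pathway genes on the Th1 array and 10 positive in the difference, in place of 3 and 4. The shares of all genes became 11.6% and 7.91%, in place of 6.92% and 4.53%. Taking the probe with the smallest absolute value turned the members' median difference to −0.0062. Taking the largest gave 8 and 6 negative pathway genes on the Th1 and Th17 arrays and 7 positive in the difference. The matching shares of all genes were 10.0%, 7.97% and 6.66%. At 1.5-fold, 4 members were negative on the Th1 array, where 16.5% of all genes were. Pathway genes numbered 9 negative and 15 positive there, against 16.5% and 9.49% of all genes. They numbered 9 and 20 on the Th17 array, against 13.01% and 7.88%, and 7 and 17 in the difference, against 9.33% and 11.21%. With the equal-signal zero, the members' medians turned to 0.24 on the Th1 array and −0.26 in the difference. Past 2-fold, 0 members were negative on either array. Pathway genes numbered 0 negative and 30 positive on the Th1 array, against 1.70% and 29.8% of all genes. On the Th17 array they numbered 0 and 20, against 2.78% and 8.17%, and in the difference 7 and 1, against 9.49% and 2.11%. The constants added to each array set these last counts, so the side of 0 on which a member lies is less certain than its place among all genes. Single probes and 1 array per comparison limit every value.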
